A study of Mus musculus with 23 samples.

Results

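Actins and tropomyosins were followed on arrays from embryonic stem cells through muscle cell culture to adult muscle. The members are the 6 mouse actin genes Acta1, Actc1, Acta2, Actg2, Actb and Actg1 and the 4 tropomyosin genes Tpm1, Tpm2, Tpm3 and Tpm4, chosen by gene name. They are read by 20 probes, 10 for the actins and 10 for the tropomyosins, of 55681 probes measured in all.

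The series holds 23 one-colour Agilent arrays of 22 samples, in 7 groups of 3 and 1 further muscle sample. The stem cell group consists of the lines cGR8 (129Sv), RD1 (129X1/SvJ) and E14tg2 (129/Ola), 1 sample each, and the last was hybridised on 2 arrays that were averaged. C57BL/6J primary myoblasts were taken at passage 0 and, as proliferating cultures on collagen in medium with serum and bFGF, at passages 8 to 10. Myotubes were the same kind of cells after 1, 2 or 4 days on Matrigel in DMEM with horse serum. Quadriceps sample 1 came from C57BL/6J and samples 2 and 3 from 129Sv/C57BL/6J, so strain and animal cannot be told apart within that group. The single skeletal muscle sample of NOD/ShiLtj entered no test. All samples are labelled male except E14tg2, which carries no sex label, and no age is given. The sample titles carry numbers, 21, 26 and 28 for samples 1, 2 and 3 of the proliferating cultures and of each myotube day, and 26, 30 and 42 for those of passage 0. The labels do not say whether a number marks an animal, a culture or something else, so p-values measure only the spread between these samples.

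Actin polymerises into filaments. In striated muscle, Acta1 (skeletal) and Actc1 (cardiac) form the thin filaments of the sarcomere, and Actc1 is known as the actin of embryonic and regenerating skeletal muscle as well as of the heart. Acta2 and Actg2 are the vascular and enteric smooth muscle actins, and Actb and Actg1 are the cytoplasmic actins of all cells. Tropomyosin is a coiled coil that lies along the filament and, in muscle, moves with troponin to open or close the sites where myosin binds. Each tropomyosin gene gives several proteins through alternative promoters and exons, and muscle and non-muscle forms of a gene differ in which exons they use.

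The probes are 60 bases long and several of them lie in coding sequence, where they show which part of the transcript was read. All positions are those of the files, in mm9. The Acta1 probe reads the coding sequence on the minus strand at chr8:126416197-126416256, and the Tpm3 probe shown here lies on the plus strand at chr3:89877669-89877728, in an upstream exon of the long, muscle-type transcripts. The pair of Tpm1 probes is shown because each sits in an exon that the striated muscle form skips. A_55_P2032192, at chr9:66871166-66871225, ends in a stop codon, in capitals, and belongs to the last exon of the smooth muscle and non-muscle forms. A_55_P2078680, at chr9:66880274-66880333, belongs to an internal exon of non-muscle forms. Tpm1 and Tpm2 are on the minus strand.

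Acta1 A_51_P246854: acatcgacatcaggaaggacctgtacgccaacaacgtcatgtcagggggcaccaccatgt
Tpm1 A_55_P2032192: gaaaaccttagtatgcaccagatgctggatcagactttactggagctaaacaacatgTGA
Tpm1 A_55_P2078680: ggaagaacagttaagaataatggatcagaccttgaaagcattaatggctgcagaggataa
Tpm2 A_55_P2121408: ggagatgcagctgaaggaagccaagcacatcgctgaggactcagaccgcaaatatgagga
Tpm3 A_55_P2246235: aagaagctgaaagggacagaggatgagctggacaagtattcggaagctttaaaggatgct

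The other Tpm1 probes are A_55_P2187038 at chr9:66875796-66875855 and A_55_P2187043 at chr9:66875782-66875841, which share 46 bases without a difference and are annotated to transcript variant 1, and A_55_P2187053 at chr9:66872131-66872190, annotated to variant 9. A_55_P2187038 lies 4570 bases upstream of A_55_P2032192. In what follows A_55_P2187038 is called the variant 1 probe and A_55_P2032192 the variant 2 probe, after their annotation. Tpm2 is read by A_55_P2121408 at chr4:43532262-43532321 and A_52_P315976 at chr4:43531276-43531335, both coding. The second Tpm3 probe, A_55_P2090209 at chr3:89904428-89904487, lies 26699 bases downstream of the first. Tpm4 has the probe A_51_P225592 at chr8:74676891-74676950, on the plus strand.

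Actc1 has the probe A_55_P2040951 at chr2:113873064-113873123, Acta2 A_52_P420504 at chr19:34316060-34316119, Actg2 A_55_P1963807 at chr6:83462904-83462963 and Actb A_55_P2112737 at chr5:143665422-143665481, all on the minus strand. Actg1, also on the minus strand, has 5 probes on chromosome 11. Its 3 coding probes overlap, and they are shown because their letters disagree where they overlap. Capitals mark the positions at which A_52_P72237 and A_55_P1985984 differ.

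Actg1 A_52_P72237: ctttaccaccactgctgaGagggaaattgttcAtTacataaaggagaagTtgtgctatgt
Actg1 A_55_P1985984: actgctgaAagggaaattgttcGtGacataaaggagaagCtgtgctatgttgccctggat
Actg1 A_55_P2008907: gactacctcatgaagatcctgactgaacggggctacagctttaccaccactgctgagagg

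A_52_P72237 (chr11:120208371-120208430) and A_55_P1985984 (chr11:120208361-120208420) overlap by 50 bases and differ at 4 of them, G19A, A33G, T35G and T50C, counted from 1 at the 5′ end of A_52_P72237. A_55_P2008907 (chr11:120208409-120208468) matches the first of these over 22 shared bases and differs from the second at 1 of 12, G57A counted on A_55_P2008907. Actg1 is known for processed pseudogenes, near-identical copies that a coding probe could also read, so the levels of these 3 probes are uncertain. The remaining probes, A_55_P2114993 (chr11:120206997-120207056) and A_55_P1970597 (chr11:120206967-120206984, of which the files give 18 bases), lie at the 3′ end of the gene. A stretch of 20 or more bases was shared between a member probe and a probe of another name in 2 cases, A_55_P1970597 of Actg1 with 20 bases and the Tpm4 probe with 26. The search covered only other probes of the array, not transcripts. Whether a member probe, such as the coding probe of Acta1, also reads other actins was not tested.

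RefSeq promoters on GRCm38.p6, taken as the 250 bases before the transcript start, were available for 8 of the 10 genes (9 promoters), all but Actg2 and Actb. The actin genes are textbook targets of serum response factor, which binds the CArG box, a motif of 10 letters. Only exact matches were searched, with CC and GG around letters that are all A or T. On either strand, 3 of the 9 promoters held it, those of Acta1, Actc1 and Actg1, against 1.467% of 32851 promoters searched the same way. These 3 are printed because a skeletal, a cardiac and a cytoplasmic actin whose levels moved differently in these samples all carry the motif, which is in capitals. The windows are chr8:123894776-123895025, chr2:114052876-114053125 and chr11:120348496-120348745, each on the minus strand.

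Acta1: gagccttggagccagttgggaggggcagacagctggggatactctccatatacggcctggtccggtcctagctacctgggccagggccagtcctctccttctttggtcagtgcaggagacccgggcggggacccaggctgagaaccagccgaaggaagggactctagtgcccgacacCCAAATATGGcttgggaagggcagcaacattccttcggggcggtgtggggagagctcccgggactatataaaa
Actc1: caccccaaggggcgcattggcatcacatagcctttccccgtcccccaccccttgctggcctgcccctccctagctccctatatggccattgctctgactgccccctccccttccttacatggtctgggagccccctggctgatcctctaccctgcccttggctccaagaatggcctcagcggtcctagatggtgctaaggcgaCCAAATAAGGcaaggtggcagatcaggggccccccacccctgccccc
Actg1: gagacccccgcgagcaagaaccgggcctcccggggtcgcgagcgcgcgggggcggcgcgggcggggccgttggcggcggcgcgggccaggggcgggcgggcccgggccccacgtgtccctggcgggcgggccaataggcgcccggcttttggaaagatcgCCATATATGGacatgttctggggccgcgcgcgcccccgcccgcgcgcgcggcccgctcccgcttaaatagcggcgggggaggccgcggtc

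The box begins 73 bases before the start of Acta1, 47 before that of Actc1 and 90 before that of Actg1. The Acta2 window held no exact match. It did hold ccctatatgg and ccttgtttgg, which have a C or G among the inner letters, and such near matches were not counted in any window. CAGCTG, a site type bound by the myogenic MyoD family, occurred in the windows of Acta1, Acta2, Tpm2 and 1 of the 2 Tpm3 promoters, against 13.001% of all promoters. CATTCC, the TEAD factor site, occurred in those of Acta1, Acta2 and Tpm1, against 12.642%. A MEF2 site occurred in 0 of the 9, against 2.919%. No matches of different motifs overlapped in these windows, and a match describes the letters alone.

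Levels below are log2 of the processed spot signal minus log2 of the array's 75th percentile, so that a level of 0 is the brightness of that percentile. Levels of different probes are not comparable with each other, since probes differ in how strongly they bind. A probe was tested between a pair of groups where it stood well above background in all samples of at least 1 of them, and it was called higher or lower at an adjusted p below 0.05 and a fold of at least 2, in a limma fit over all probes with Benjamini-Hochberg adjustment. In all, 17 of the 20 probes were well above background in every sample of the 7 groups. The exceptions were Actg2, the Tpm1 internal exon probe and the upstream Tpm3 probe. The 75th percentile was 87.7 on the array of proliferating myoblast sample 1 and between 208 and 765 on the other arrays, and 39.1 to 60.1% of spots were well above background. Stem cell markers were all detected in the stem cells (6 of 6, summed level 9.50 to 9.72). Markers of myotubes and fibres summed to 6.84 to 8.06 in the proliferating myoblasts, 11.11 to 11.95 in day 4 myotubes and 12.19 to 12.61 in quadriceps, so the proliferating cultures already held that signal.

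Between stem cells and passage 0 myoblasts, Acta1, Actc1, Acta2, Tpm2, Tpm4 and 3 of the 5 Tpm1 probes were higher in the myoblasts, and no probe of the cytoplasmic actins was called. Of 19 member probes tested, 9 were called higher, where 17.5% of all probes tested were, and 0 lower, where 20.6% were. The median change over the member probes was 2.26 on the log2 scale, against -0.27 over all probes. Between passage 0 and proliferating myoblasts 0 of 20 probes were called, against 0.829% of all probes, with 1 of the 20 at an unadjusted p below 0.05 in the limma fit. That count was also 0 in each of 12 other settings.

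After the move to Matrigel the members parted. From proliferating to day 1 cultures, 1 of 20 probes was called higher (Acta1), against 5.32% of all probes, and 1 lower (the Tpm1 internal exon probe), against 2.88%. From day 1 to day 2, 0 were called higher, against 0.489%, and 5 lower, against 1.9%. The 5 were 3 Actg1 probes and the Tpm1 probes in exons that the striated form skips. From day 2 to day 4, 0 of 18 were called, against 0.263%, with 0.208% called higher and 0.0552% lower. In the limma fit 1 of the 18 had an unadjusted p below 0.05, and 0 were called under any of 12 other settings. The counts for the first and second step moved with the processing and with single samples: the first lay between 0 and 8 and the second between 0 and 10 over the 12 settings. The second was 0 with the title number as a block in a fit of the muscle cultures alone, where the adjusted p of the 5 lay between 0.066 and 0.19. Without day 1 sample 1, day 1 sample 2 or day 2 sample 1 the second count was 1, without day 2 sample 3 it was 3, and without day 1 sample 3 it was 9.

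Over the whole course, from proliferating myoblasts to day 4 myotubes, 6 of 20 probes were called higher, against 14.2% of all probes, and 10 lower, against 10.2% (24.4% in either direction). Higher were Acta1, Actc1, the Tpm1 variant 1 probes and Tpm2. Lower were Actb, all 5 Actg1 probes, the Tpm1 variant 2 and internal exon probes, the downstream Tpm3 probe and Tpm4. The median change over the 20 member probes was -1.85, against 0.03 over all probes, but 5 of the 20 read the single gene Actg1. By gene, 4 had a probe called higher and 5 had a probe called lower, with Tpm1 among both. A fit of only these groups, which estimates the spread from 6 samples, called 4 of the 16.

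Quadriceps differed from day 4 myotubes in 6 of 19 probes tested: 3 were called higher, against 15.2% of all probes, and 3 lower, against 15.8%. All 3 that were higher belong to Tpm1, and the lower ones were Actc1, Acta2 and the downstream Tpm3 probe. The members' share called in either direction was close to the 31% of all probes, so the count by itself is no result about them. Without quadriceps sample 2 or sample 3 it was 3. Against stem cells, 7 of 18 probes were higher in quadriceps, against 24.9%, and 9 lower, against 30.4% (55.3% in either direction).

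**Figure D1:**
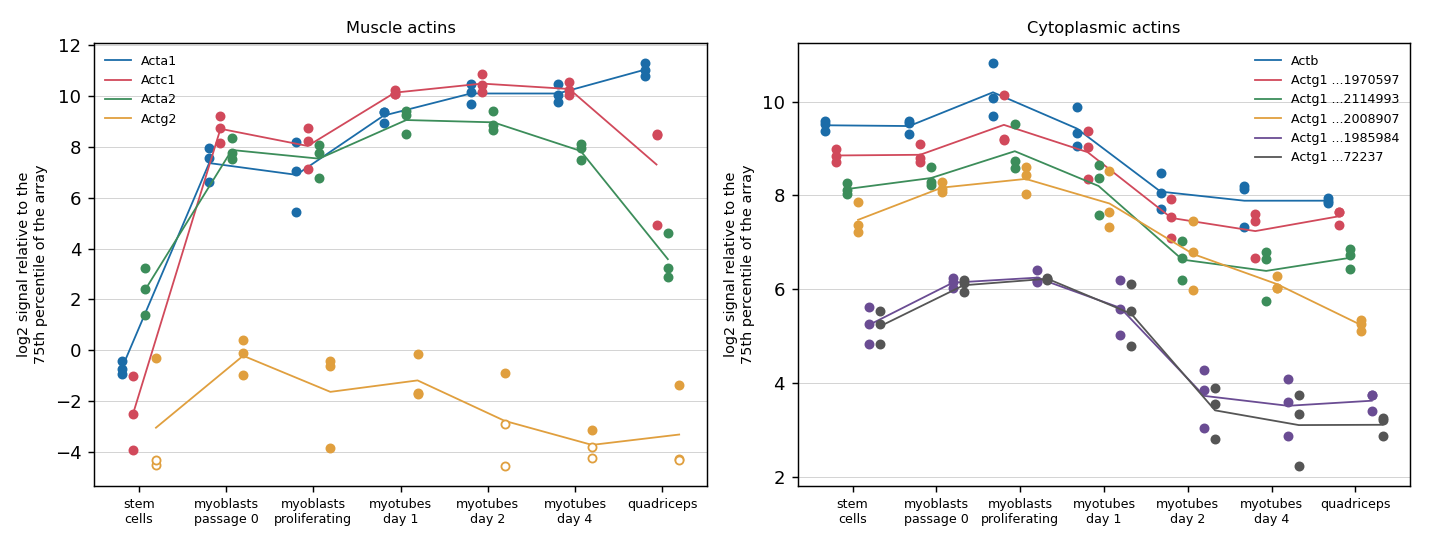
Levels of the muscle actins (left) and cytoplasmic actins (right) in the 7 groups; the vertical axis is the log2 signal relative to the 75th percentile of the array. Points are samples (3 per group), lines join group means and open points are not well above background; Acta1 runs from -0.70 in stem cells to 11.04 in quadriceps, while Actb falls from 10.20 in proliferating myoblasts to 7.89 at day 4.

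Acta1, the actin of adult skeletal muscle, had its highest level in quadriceps. In the stem cell samples it stood at -0.73, -0.93 and -0.43. It was 6.60, 7.94 and 7.55 in passage 0 myoblasts and 8.21, 7.06 and 5.43 in the proliferating cultures. The myoblasts were all far above the stem cells, and the proliferating samples were spread widely, with sample 3 the lowest.

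In the myotubes the Acta1 level was 8.94, 9.37 and 9.38 at day 1, then 10.47, 10.15 and 9.69 at day 2, and 10.48, 10.04 and 9.78 at day 4. The quadriceps samples stood at 10.80, 11.04 and 11.28. Every myotube sample was above every proliferating sample, and every quadriceps sample was above every myotube sample. Acta1 rose by 8.06 on the log2 scale from stem cells to passage 0 myoblasts (SE 0.52, a 266.8-fold difference, limma adjusted p = 1.3e-09). From proliferating to day 1 it rose by 2.33 (adjusted p = 0.0088), and to day 4 by 3.20 (SE 0.52, 9.19-fold, adjusted p = 0.00019). These rises rest partly on the spread of the proliferating samples: without sample 3 they were 1.59 and 2.47, and without sample 1 they were 2.98 and 3.85, all still called. In limma fits of only the groups compared, the day 1 call (adjusted p = 0.35) and the day 4 call (adjusted p = 0.065) were lost. Quadriceps exceeded day 4 myotubes by 0.94, which did not pass the test (95% interval -0.17 to 2.05, adjusted p = 0.18), and exceeded stem cells by 11.74, or 3414-fold (adjusted p = 6.2e-12).

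Actc1, the cardiac actin, had its highest levels in the myotubes. The stem cell samples gave -1.0, -3.92 and -2.49, the lowest levels of all. Passage 0 myoblasts were at 8.17, 9.23 and 8.74 and proliferating cultures at 8.25, 8.75 and 7.11. Myotubes reached 10.09, 10.24 and 10.08 at day 1, 10.87, 10.44 and 10.17 at day 2, and 10.55, 10.25 and 10.03 at day 4. The 9 myotube samples lay within a narrow band above all the myoblast samples.

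In quadriceps the Actc1 levels were 8.47, 4.94 and 8.52. All 3 lay below the myotubes, with sample 2 far under the other two. Actc1 rose by 11.18 between stem cells and passage 0 myoblasts (SE 0.78, 2323-fold, limma adjusted p = 3.7e-09), by 11.92 without stem cell sample 1 and by 10.46 without sample 2. Day 4 myotubes exceeded proliferating myoblasts by 2.24 (SE 0.78, adjusted p = 0.043). That call was lost without proliferating sample 1 or 3 or without any of the day 4 samples, with an adjusted p between 0.041 and 0.15 as each sample of these groups was left out in turn. Scaling on probes above background on all arrays (adjusted p = 0.053), no filter on dim probes (0.088) and a fit of only the groups compared (0.097) also lost it.

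From day 4 myotubes to quadriceps, Actc1 fell by 2.97 on the log2 scale (SE 0.78, 7.84-fold, limma adjusted p = 0.0067), and it stayed below the threshold of 0.05 as each sample was left out (adjusted p 0.0042 to 0.048). Without quadriceps sample 2 it fell by 1.79, and without sample 3 it fell by 3.57. Of 4 heart markers, 1 to 3 stood above background in day 4 myotubes, with summed levels of 0.31 to 0.87, and 1 to 2 in quadriceps, at -1.74 to 2.02. Myh6, a cardiac myosin heavy chain, was detected in all samples of both groups (means 0.34 and -1.17), and Myl7, the atrial light chain, in 0 of 6. Relative to Acta1 on the same array, Actc1 was lower in quadriceps than at day 4 by 3.91 (SD 2.06 in quadriceps and 0.09 at day 4, n = 3 each, exact two-sided permutation p = 0.1, the smallest that 3 against 3 samples can give).

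Acta2 is the actin of vascular smooth muscle and is also known in immature muscle cells and activated fibroblasts. Stem cells had 3.23, 1.40 and 2.40. The myoblasts had 7.53, 8.37 and 7.74 at passage 0 and 7.75, 8.09 and 6.78 when proliferating. Day 1 myotubes were at 8.52, 9.40 and 9.26, day 2 at 8.85, 9.40 and 8.65, and day 4 at 7.48, 7.94 and 8.10. The cultured muscle cells of every stage were above all stem cell and muscle samples.

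Quadriceps gave Acta2 levels of 4.62, 3.23 and 2.90, far below the muscle cultures, with samples 2 and 3 close to the stem cell levels. Acta2 rose by 5.53 from stem cells to passage 0 myoblasts (46.36-fold, limma adjusted p = 1.1e-07). The difference of 1.52 from proliferating to day 1 cultures did not pass (adjusted p = 0.08), nor did the 0.30 to day 4 (95% interval -0.80 to 1.41, adjusted p = 0.74). It fell by 4.26 from day 4 myotubes to quadriceps (SE 0.51, 19.12-fold, adjusted p = 4.8e-06). Against stem cells quadriceps was higher by 1.24 (adjusted p = 0.047), but the samples overlapped. That call was lost without quadriceps sample 1 (0.72, adjusted p = 0.26), without sample 2 of either group or stem cell sample 3, and under 8 further settings.

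Of 8 smooth muscle markers, 3 to 6 were above background in a sample of the muscle cultures and 6 to 7 in quadriceps. Smtn had means of 4.46 to 6.77 and Tagln, transgelin, of 3.19 to 4.73 in the muscle cultures, and both were detected in every sample. Myh11, the smooth muscle myosin, was not well above background in any cultured sample and stood at 0.57 ± 0.81 (SD, n = 3) in quadriceps. Lmod1 was above background in 1 of 21 samples. The summed level of the 8 smooth muscle markers was 4.28 to 6.14 in proliferating myoblasts, 6.05 to 6.88 in day 4 myotubes and 5.72 to 6.25 in quadriceps. From day 4 to quadriceps, 3 of 6 tested were called higher (15.2% of all probes) and 0 lower (15.8%), with a median change of 1.59. Synpo2 had means of -0.36 at day 4 and 1.64 in quadriceps, and Mylk of -2.14 and -0.96. Smtn, the brightest, had 6.27 and 5.51, and Tagln 3.81 and 3.73. In whole tissue, fewer cells of a type and less RNA per cell cannot be told apart. Quadriceps also held more signal of the 8 fibroblast markers (8.28 to 9.70 against 3.39 to 4.08 at day 4), and the part of other cell types in the muscle values was not tested.

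Actg2, the enteric smooth muscle actin, stayed near the detection limit. It was above background in all samples of passage 0 myoblasts (-0.09, 0.42 and -0.98), proliferating myoblasts (-0.63, -0.41 and -3.86) and day 1 myotubes (-1.70, -0.13 and -1.73). In each of the 4 other groups it was above background in 1 of 3 samples. None of the 8 comparisons called it; the difference between passage 0 myoblasts and stem cells was 2.83 (limma adjusted p = 0.06), and it passed with normexp background correction (0.036), with the replicate block (0.033) and without stem cell sample 1 (0.0063). Over all 21 pairs of groups it was lower than at passage 0 in day 4 myotubes (-3.51, adjusted p = 0.03) and in quadriceps (-3.1, adjusted p = 0.035), where 2 of 3 samples each were not well above background.

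Actb, the beta cytoplasmic actin often used as a reference gene, was not constant. Stem cells had 9.52, 9.38 and 9.59 and passage 0 myoblasts 9.59, 9.53 and 9.32. Proliferating cultures had 10.81, 10.08 and 9.70, and day 1 myotubes 9.33, 9.89 and 9.06. These 4 groups overlapped or lay close together.

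At day 2 the Actb levels were 8.06, 8.48 and 7.70, at day 4 8.14, 7.33 and 8.19, and in quadriceps 7.84, 7.94 and 7.88. All of them lay below every sample of the earlier groups. Stem cells and passage 0 myoblasts differed by -0.02 (95% interval -0.77 to 0.74, limma adjusted p = 0.98). The change from day 1 to day 2, -1.35, narrowly missed the threshold (adjusted p = 0.051) and passed it in 6 alternative settings. From proliferating myoblasts to day 4 Actb fell by 2.31 (SE 0.35, 4.97-fold, adjusted p = 1e-04), with a range of -2.45 to -2.14 over the scalings tried. Quadriceps and day 4 myotubes differed by 0.00 (95% interval -0.75 to 0.75), and quadriceps was below stem cells by 1.61 (3.05-fold, adjusted p = 0.00073).

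Actg1, the gamma cytoplasmic actin, was likewise lower from day 2 on by its brightest probe, A_55_P1970597. This probe stood at 8.99, 8.72 and 8.84 in stem cells, 9.09, 8.72 and 8.79 at passage 0 and 10.14, 9.21 and 9.17 in proliferating cultures. It was 9.04, 9.37 and 8.35 at day 1, then 7.08, 7.93 and 7.54 at day 2, 7.45, 6.66 and 7.60 at day 4, and 7.65, 7.66 and 7.37 in quadriceps. Day 2, day 4 and quadriceps samples again lay below all the earlier ones.

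All 5 Actg1 probes fell from proliferating myoblasts to day 4, by between 2.24 (A_55_P2008907, 4.74-fold, limma adjusted p = 0.00026) and 3.12 (A_52_P72237, 8.70-fold, adjusted p = 3.1e-05), and A_55_P1970597 fell by 2.27 (adjusted p = 2e-04). The probes whose letters differ, A_52_P72237 and A_55_P1985984, fell by 3.12 and by 2.73 over this step, and the difference between these changes was not tested. From day 1 to day 2 the decreases of A_52_P72237 (-2.06, adjusted p = 0.0097), A_55_P1985984 (-1.88, adjusted p = 0.013) and A_55_P2114993 (-1.57, adjusted p = 0.031) passed the test. All 3 calls were lost in a limma fit of only these groups (adjusted p 0.086 to 0.13) and with the title number as a block (0.13 to 0.19). They were also lost without day 1 sample 1, day 1 sample 2 or day 2 sample 1. A_55_P2008907 had 6.02, 6.02 and 6.28 at day 4 and 5.25, 5.12 and 5.35 in quadriceps, with no overlap. Its change of -0.87 did not pass (adjusted p = 0.086), yet it differed from that of A_55_P1970597 by -1.19 (SE 0.32, limma on the within-array difference, adjusted p = 0.026). In quadriceps against day 4, such unequal change was called for 7.28% of 4037 probe pairs. The call was lost without day 4 sample 2 (adjusted p = 0.14), quadriceps sample 1 (0.082) or quadriceps sample 2 (0.12).

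**Figure D2:**
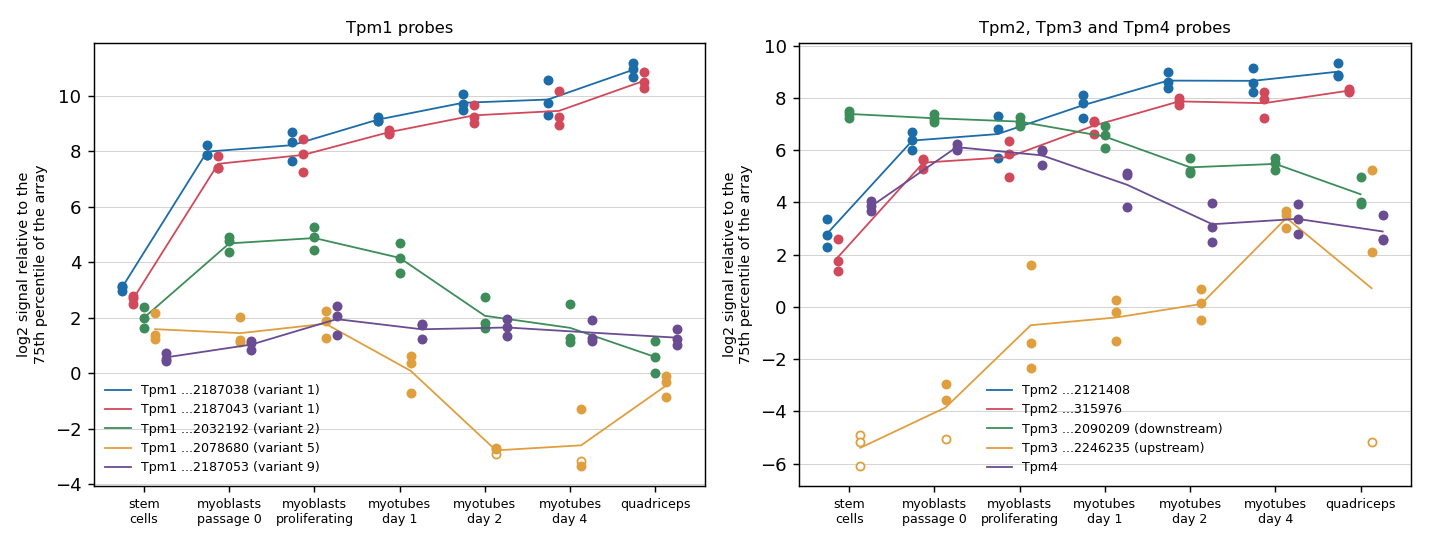
Levels of the 5 Tpm1 probes (left) and of the Tpm2, Tpm3 and Tpm4 probes (right) in the 7 groups; the vertical axis is the log2 signal relative to the 75th percentile of the array. Points are samples, lines join group means and open points are not well above background; the Tpm1 variant 1 probes climb to 10.95 and 10.55 in quadriceps, while the variant 2 probe goes from 4.88 in proliferating myoblasts to 1.63 at day 4.

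Tpm1, the alpha tropomyosin that striated muscle makes in large amounts, gave opposite changes on different exons. The variant 1 probe stood at 3.11, 3.15 and 2.98 in stem cells, 7.87, 8.23 and 7.88 in passage 0 and 8.69, 8.35 and 7.65 in proliferating myoblasts. It was 9.10, 9.25 and 9.09 at day 1, 10.06, 9.71 and 9.50 at day 2, and 10.58, 9.73 and 9.31 at day 4. In quadriceps it was 10.70, 10.97 and 11.18. Each step of this series except passage 0 to proliferating and day 2 to day 4 separated the samples without overlap.

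The variant 2 probe, in the last exon of the non-muscle forms, ran the other way after the myoblast stage. It stood at 1.99, 1.61 and 2.39 in stem cells, 4.90, 4.78 and 4.37 at passage 0 and 4.44, 5.26 and 4.92 in proliferating myoblasts. Its levels were 4.16, 4.69 and 3.63 at day 1, then 1.80, 2.77 and 1.64 at day 2, 1.27, 1.12 and 2.51 at day 4, and 1.15, 0.57 and 0.01 in quadriceps. The drop came between day 1 and day 2, after which the day 2 and day 4 samples overlapped those of the stem cells.

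From stem cells to passage 0 myoblasts both Tpm1 probes rose, the variant 1 probe by 4.91 (30.14-fold, limma adjusted p = 4.3e-09) and the variant 2 probe by 2.68 (6.42-fold, adjusted p = 9.2e-05). The variant 2 probe rose by less, with a difference of -2.23 between their changes (SE 0.59, adjusted p = 0.024). That call was lost without stem cell sample 1 or 3 or passage 0 sample 2 or 3 (adjusted p 0.066 to 0.095). Among 5945 pairs of probes of a gene, 7.15% were called so in this comparison.

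From proliferating myoblasts to day 4 the Tpm1 probes parted: the variant 1 probe rose by 1.65 (SE 0.35, 3.13-fold, limma adjusted p = 0.0018) and the variant 2 probe fell by 3.24 (SE 0.45, 9.46-fold, adjusted p = 4.5e-05). The difference between their changes was -4.89 (SE 0.59, adjusted p = 0.00014), where 3.12% of 3522 probe pairs were called. From day 4 to quadriceps the variant 1 probe rose by a further 1.07 (adjusted p = 0.024), close to the required fold of 2. With quantile normalization (a rise of 0.45, limma adjusted p = 0.021) and in the authors' values (a rise of 0.56, adjusted p = 0.0024) it fell short of the required fold only. That call was also lost in a fit of only these groups and without sample 2 or 3 of either group. The variant 2 probe changed by -1.05 (adjusted p = 0.08), and the difference between the changes, -2.13, passed (adjusted p = 0.032) but did not without sample 2 or 3 of either group (adjusted p up to 0.16). Between stem cells and quadriceps the variant 1 probe rose by 7.87 (233.6-fold, adjusted p = 6.2e-12) and the variant 2 probe fell by 1.42 (adjusted p = 0.011). The variant 2 call was lost without stem cell sample 3 (limma adjusted p = 0.054) or quadriceps sample 3 (0.062).

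The Tpm1 internal exon probe was dimmer. Its levels were 2.16, 1.24 and 1.37 in stem cells, 2.02, 1.19 and 1.12 at passage 0, and 1.87, 1.25 and 2.23 in proliferating cultures. They were 0.35, 0.62 and -0.73 at day 1. At day 2 (-2.93, -2.73 and -2.71) and day 4 (-3.18, -3.34 and -1.30) sample 1 was not well above background, and quadriceps stood at -0.87, -0.12 and -0.33. Stem cells and myoblasts overlapped, the later myotubes were lowest, and quadriceps lay between.

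This probe fell by 1.70 from proliferating to day 1 (limma adjusted p = 0.045, lost in 10 alternative settings), by 2.87 to day 2 (adjusted p = 0.0038), and fell by 4.39 from proliferating to day 4 (SE 0.51, adjusted p = 9.6e-06), measured above background in 2 of 3 day 4 samples. It fell by 3.04 with normexp background correction, fell by 3.40 in the authors' values and fell by 5.04 without day 4 sample 3. It was higher by 2.17 in quadriceps than at day 4 (adjusted p = 0.0027), and by 2.82 without day 4 sample 3. Between stem cells and passage 0 myoblasts it changed by -0.14 (adjusted p = 0.84), and its change differed from that of the variant 1 probe by -5.06 (adjusted p = 8.9e-05). The variant 9 probe had group means between 0.57 and 1.95. None of the 8 comparisons called it, although over all pairs of groups it was higher than in stem cells in proliferating myoblasts (by 1.38, adjusted p = 0.0031) and at day 1 and day 2. Its change from proliferating to day 4, -0.49, differed from that of the variant 1 probe by -2.14 (adjusted p = 0.0024).

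**Figure D3:**
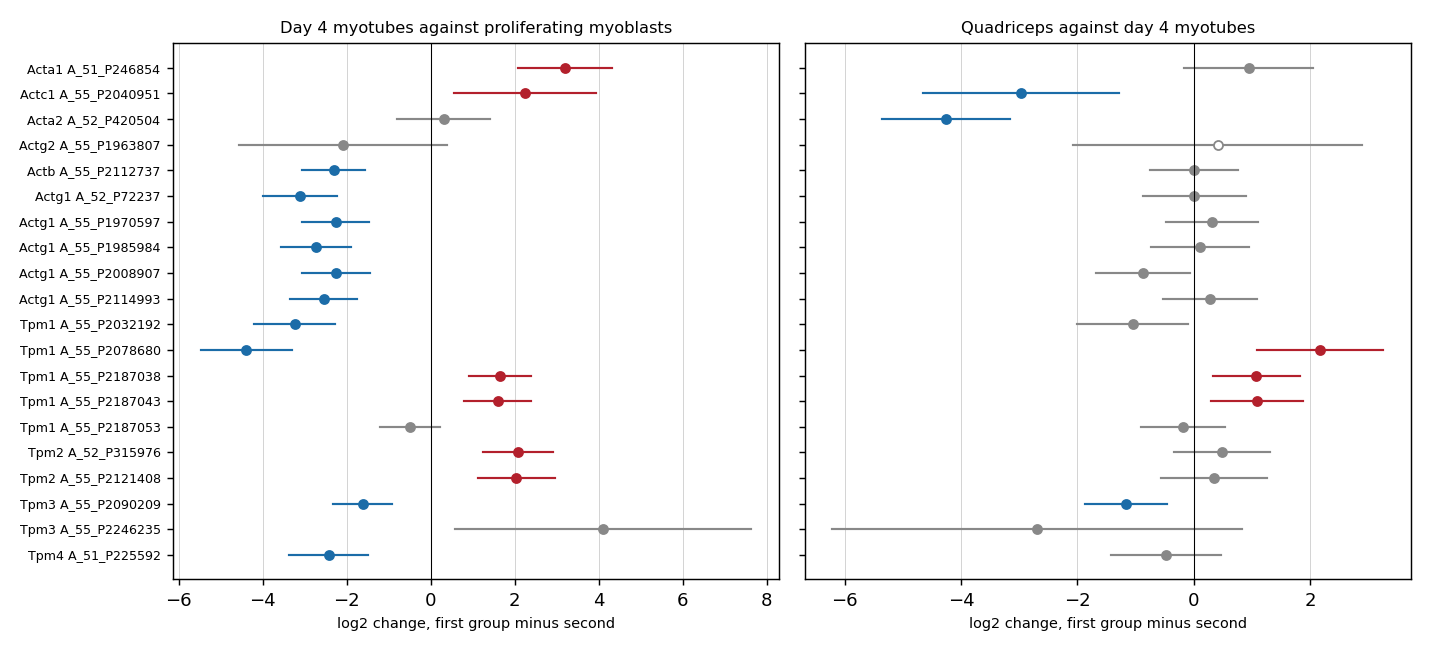
Change of each of the 20 member probes from proliferating myoblasts to day 4 myotubes (left) and from day 4 myotubes to quadriceps (right), on the log2 scale, with 95% intervals from the limma fit. Red probes were called higher, blue ones lower, grey ones neither, and the open point was not tested; on the left Acta1 stands at 3.20 and the Tpm1 variant 2 probe at -3.24.

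Tpm2, the beta tropomyosin of slow and developing muscle, was highest from day 2 on, and the changes of its probes differed by -0.06 to 0.17 over the 8 comparisons, with none called. A_55_P2121408 was at 3.37, 2.30 and 2.75 in stem cells, 6.01, 6.72 and 6.38 at passage 0, and 7.32, 6.83 and 5.71 when proliferating. It reached 7.25, 7.80 and 8.12 at day 1, 8.99, 8.61 and 8.39 at day 2, 9.14, 8.59 and 8.24 at day 4, and 8.87, 8.84 and 9.32 in quadriceps. Myotubes of day 2 and day 4 and the muscle samples lay in the same range.

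On that probe Tpm2 rose by 3.56 from stem cells to passage 0 (11.81-fold, limma adjusted p = 2.1e-06) and by 2.04 from proliferating to day 4 (4.11-fold, adjusted p = 0.0015). A_52_P315976 rose by 3.61 and 2.07. Quadriceps differed from day 4 by 0.35 (95% interval -0.56 to 1.26, adjusted p = 0.57).

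Tpm3 encodes the slow-fibre alpha tropomyosin from its long, muscle-type transcripts and cytoplasmic tropomyosins from shorter ones that start at a downstream promoter. Both Tpm3 probes are annotated to the same transcript, and whether the downstream probe reads the long transcripts, the short ones or both was not tested. The downstream probe stood at 7.25, 7.40 and 7.51 in stem cells, 7.38, 7.21 and 7.08 at passage 0, and 6.93, 7.29 and 7.07 in proliferating cultures. It was 6.59, 6.91 and 6.07 at day 1, 5.21, 5.71 and 5.12 at day 2, 5.24, 5.50 and 5.69 at day 4, and 4.96, 4.03 and 3.95 in quadriceps. The level thus started high and was lowest in muscle.

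The downstream Tpm3 probe fell by 1.62 from proliferating myoblasts to day 4 (SE 0.33, 3.07-fold, limma adjusted p = 0.0013). From day 4 to quadriceps it fell by 1.16 (SE 0.33, adjusted p = 0.011), a call lost without quadriceps sample 2 or 3 (adjusted p = 0.056 and 0.059). Between stem cells and quadriceps it fell by 3.07 (8.42-fold, adjusted p = 3.3e-07).

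The upstream Tpm3 probe was not well above background in any stem cell sample and in 2 of 3 passage 0 samples was, at -2.93 and -3.58. Proliferating cultures had 1.61, -2.34 and -1.37. Myotubes had -0.19, -1.31 and 0.28 at day 1, then 0.67, -0.50 and 0.16 at day 2, and 3.68, 3.53 and 3.01 at day 4. The day 4 samples were the highest of all cultured samples, without overlap.

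The upstream probe differed by 4.11 between proliferating and day 4 (SE 1.64, limma adjusted p = 0.075). The SE rests on a spread shared by all groups, and the quadriceps samples, at 5.24, 2.09 and -5.19 (the last not well above background), were far apart. In a fit without the quadriceps group, chosen after the data were seen, the adjusted p was 0.0015. The difference between the changes of the upstream and downstream probes was 5.73 (SE 1.67, adjusted p = 0.078, and 0.0034 without the quadriceps group).

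**Figure D4:**
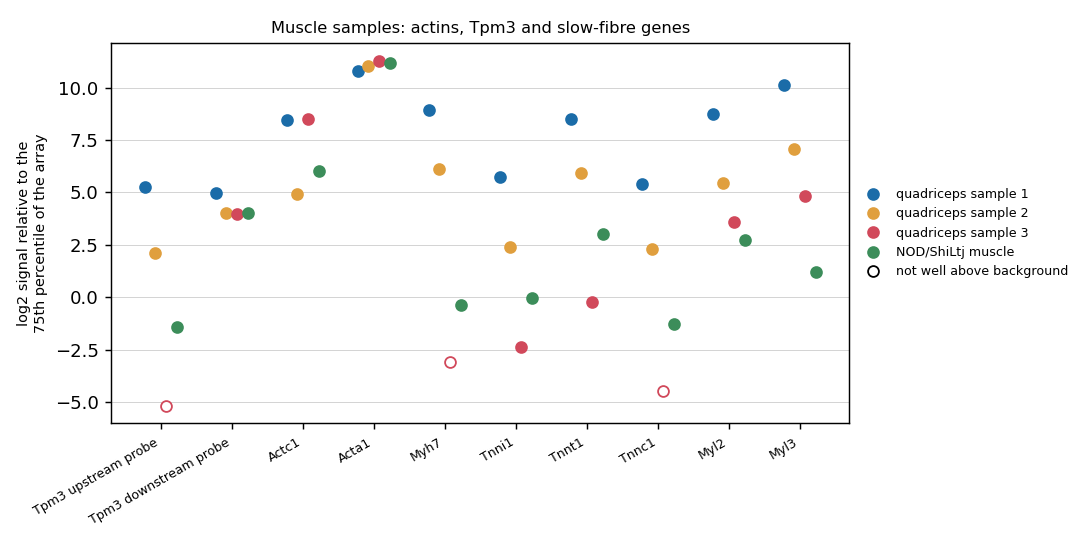
Levels of the Tpm3 probes, Actc1, Acta1 and 6 slow-fibre genes in the 3 quadriceps samples and the single NOD/ShiLtj muscle sample; the vertical axis is the log2 signal relative to the 75th percentile of the array. Open points are not well above background; the upstream Tpm3 probe stands at 5.24, 2.09 and -5.19 in quadriceps samples 1, 2 and 3, and Myh7 at 8.92, 6.10 and -3.09.

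The quadriceps samples were also far apart on genes of slow fibres. These genes were picked after the Tpm3 values and their own values were seen, so their shared order is a description only. Myh7, the slow myosin heavy chain, was at 8.92, 6.10 and -3.09 in samples 1, 2 and 3, the last not well above background. Tnni1, slow troponin I, was at 5.73, 2.40 and -2.36. Tnnt1, slow troponin T, was at 8.50, 5.90 and -0.22. Sample 1 was highest and sample 3 lowest on each of these, on Tnnc1, Myl2 and Myl3, and on the upstream Tpm3 probe. This order was not particular to slow-fibre genes. Several other member probes had it, among them Acta2, the downstream Tpm3 probe, Tpm4 and the Tpm1 variant 2 and variant 9 probes. The share of spots well above background also fell in that order, at 54.0, 48.4 and 43.6% in samples 1, 2 and 3. Acta1, in contrast, lay between 10.80 and 11.28 in these samples, and Actc1 took another order, with sample 2 lowest. Whether the part of the muscle dissected, the strain, the animal or the array went with these differences cannot be told apart.

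Tpm4, a tropomyosin of non-muscle cells, was at 3.87, 3.66 and 4.04 in stem cells and 6.10, 6.23 and 6.02 in passage 0 myoblasts. Proliferating cultures had 5.45, 5.99 and 5.97, day 1 myotubes 5.06, 5.14 and 3.83, day 2 2.47, 3.98 and 3.05, day 4 3.36, 2.80 and 3.95, and quadriceps 3.51, 2.61 and 2.54. Myoblasts were thus above stem cells, late myotubes and muscle alike. Tpm4 rose by 2.26 from stem cells to passage 0 (4.79-fold, limma adjusted p = 0.00043) and fell by 2.43 from proliferating to day 4 (5.40-fold, adjusted p = 0.00051). Quadriceps and day 4 differed by -0.48 (adjusted p = 0.44).

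With the 7 groups ranked by mean level for each probe, 18 of the 120 pairs of neighbours differed past the threshold. Of these, 11 had the stem cells on 1 side: for Actc1 between quadriceps at 7.31 and stem cells at -2.47, and for Tpm2 between passage 0 myoblasts at 6.37 and stem cells at 2.81. For Acta1 the order was quadriceps, day 2, day 4, day 1, passage 0, proliferating and stem cells, and the only neighbours that differed were day 1 and passage 0 (adjusted p = 0.029) and proliferating and stem cells (adjusted p = 2.9e-09). Acta2 had gaps between proliferating myoblasts and quadriceps (3.95, adjusted p = 5.2e-06) and between quadriceps and stem cells (1.24). Actb, the Actg1 probe A_55_P2008907 and Tpm4 had none past the threshold, although the Actb samples of day 1 and day 2 did not overlap.

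Genes that act with the members were taken from lists of actin and tropomyosin partners. Of 29 thin filament and sarcomeric partners, such as nebulin and the troponins, 25 of 29 tested rose from proliferating to day 4, against 14.2% of all probes, and 0 fell, against 10.2%, with a median of 3.49. The same list had 22 higher (17.5% of all probes) and 1 lower (20.6%) of 28 between stem cells and passage 0. From day 4 to quadriceps it split, with 10 higher (15.2% of all probes) and 6 lower (15.8%) of 29 and a median of 0.39 against -0.03 over all probes. Mybpc2, the fast myosin-binding protein C, had the largest rise in both steps, by 7.69 to day 4 (limma adjusted p = 3.8e-05) and by 6.06 to quadriceps (adjusted p = 0.00019). Tnnt2, the cardiac troponin T that embryonic skeletal muscle also makes, fell by 9.85 from day 4 to quadriceps (means 9.41 and -0.44, adjusted p = 1.8e-09), in the same direction as Actc1.

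General actin assembly factors had 19 higher (17.5% of all probes) and 3 lower (20.6%) of 38 at passage 0 against stem cells, with a median of 1.02. Of 36 tested from proliferating to day 4, 2 rose (14.2% of all probes) and 17 fell (10.2%), with a median of -1.03. From day 4 to quadriceps 5 of 38 rose (15.2%) and 17 fell (15.8%), although Actb and the brightest Actg1 probe were not called there. Tagln2, a transgelin of non-muscle cells, fell by 3.03 to day 4 (limma adjusted p = 0.0014), and Enah, which promotes filament growth, rose by 1.99 (adjusted p = 0.00046). Tmsb10, a thymosin that binds actin monomers, fell by 6.26 from day 4 to quadriceps (76.5-fold, adjusted p = 7.3e-09). Lcp1, the plastin of leukocytes, was at least 7.02-fold higher in quadriceps (adjusted p = 0.0074), counted from a floor because it was below background at day 4. Of 6 leukocyte markers, 4 to 5 were above background in quadriceps and 3 at day 4, and their summed level was 5.25 to 6.08 and 5.48 to 6.13. These summed levels overlapped. Only 1 of 4 leukocyte markers tested was called higher in quadriceps (15.2% of all probes) and 0 lower (15.8%), with a median change of 1.18. Lyz2, lysozyme, was detected in 3 of 3 quadriceps samples (mean -0.74) and 0 of 3 at day 4, and Csf1r, the macrophage growth factor receptor, had means of 3.49 and 1.85. The part of leukocytes in the Lcp1 value was not tested.

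The 8 smooth muscle and calponin type binders gave 2 higher and 2 lower of 6 tested from proliferating to day 4, against 14.2% and 10.2% of all probes. Smtn, smoothelin, rose by 1.82 (limma adjusted p = 0.0023) and Myl9, a regulatory light chain of non-muscle and smooth muscle myosin, fell by 2.16 (adjusted p = 0.017). In quadriceps 2 of 7 were higher and 0 lower, against 15.2% and 15.8%, and Cnn1, the smooth muscle calponin, was at least 13.1-fold higher than at day 4 (adjusted p = 0.00066), counted from the floor, while Acta2 fell. Of 12 serum response factor genes, its cofactors and known targets, 3 of 11 tested rose and 1 fell to day 4, against 14.2% and 10.2% of all probes. Abra, a muscle activator of that pathway, was at least 24.3-fold higher at day 4 than in proliferating cells (adjusted p = 6.9e-06) and rose by 2.75 again to quadriceps (adjusted p = 0.0034). Cyr61, a target in growing cells, fell by 1.55 to day 4 (adjusted p = 0.018), and Egr1, an immediate early gene, fell by 4.74 from day 4 to quadriceps (adjusted p = 2.3e-06).

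Among 23370 genes, each taken by its brightest probe, those with group means most like a member's were found by Pearson's r over the 7 groups, as a description. For Actb the list held Actg1 (r = 0.9931) after Necap2 (r = 0.9946), and for Actg1 it held Actb again, after an unnamed probe. For Tpm2 it held Dhrs7c (r = 0.9993), Myh8, a perinatal myosin heavy chain, and Tnnc2, fast troponin C. For Tpm1 the nearest were Trim54, Nfil3 and Fitm1, and the list for Acta1 held St7l and Dlst. Actc1 had Pcdhb14 and Lsp1 beside a probe named BB212172, and Acta2 had 2900057B20Rik, Clptm1l and Sertad4. For Tpm3 the downstream probe was nearest to Trip13 and Sgo1, genes of dividing cells, beside an unnamed probe. Tpm4 had Obi1, Faxc and Lxn, and Actg2, mostly near background, had Gnaq (r = 0.9725), Marcks and Sowahc.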

How the data were processed

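The data are deposited scanner files of 23 one-colour arrays (Agilent SurePrint G3 Mouse 8x60K; Feature Extraction 10.7.3.1, per the file headers). The intensity used is the processed signal, which was background-subtracted and detrended within each array by that software before it was deposited, with its detection flag as a 0 or 1 score deposited beside it; normalization and scaling between arrays were done here. The authors' deposited log2 values, normalized between arrays by a method not given in the sources used here, served as an alternative. Per the labels' protocols, RNA was extracted with miRNeasy and labelled with a low input kit. Members and gene lists were chosen with earlier results of these data known.

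Here log2 intensity minus each array's 75th percentile was computed, outlier spots were dropped, spots of a probe averaged and the E14tg2 arrays averaged. Probes were fitted in limma 3.58.1 (R 4.3.3) over 7 groups and 21 samples (14 residual degrees of freedom), with Benjamini-Hochberg adjustment over all probes tested; the number of arrays limits the precision. Unequal change was tested on the within-array difference between a probe and its gene's brightest probe, both detected in all samples of both groups. A bound ("at least") sets a probe below background to the lowest detected signal. The text names all members, the called partner with the largest fold in each direction for day 4 against proliferating and quadriceps against day 4, and the 3 genes most like each member (1 of them is not reported here); the slow-fibre genes were chosen after their values were seen. The fit was tested on simulated data first. No genome of the files' build and no protein sequences were used here. Alternatives were normexp background correction, quantile normalization, the authors' values, another scaling percentile, other filters, the brightest probe of each gene, slide and replicate blocks, a fit of only the groups compared, each sample left out, for quadriceps, the NOD/ShiLtj sample added, and, chosen after seeing the data, a fit without the quadriceps group and a block on the number in the titles.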

Additional observations from a re-analysis of the deposited data

How the results depend on the processing

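Of 160 changes of single member probes, each under its alternatives, 2587 of 2740 values kept their side of the threshold, 62 passed it newly and 91 dropped below it. Of 54 called changes, 30 never dropped below it, leaving aside the filter for probes above background in both groups. With that filter counted, 26 dropped below it in some setting. Direction was compared only for called changes, and none of these reversed. Member probes called from proliferating to day 1 myotubes (2) were 8 with normexp background correction, 8 with quantile normalization, 8 in the authors' values, 1 without a filter on dim probes, 1 with a slide block, 1 with the replicate block and 0 in a limma fit of only the groups compared (10 at an unadjusted p below 0.05 in the fit of all groups); leaving out a sample gave 1 to 3. From day 1 to day 2 (5) they were 10 with quantile normalization, 10 in the authors' values, 8 with scaling on probes detected on all arrays, 2 member genes by their brightest probe and 1 with only the groups compared; leaving out a sample gave 1 to 9. With only the groups compared, 4 were called from proliferating to day 4 (16 in all groups; 15 to 16 with a sample left out) and 3 from day 4 to quadriceps (6; 3 to 7). Unequal change of probes was called for 1 pair from proliferating to day 1 with normexp (0 otherwise), and leaving out a sample gave 2 to 4 pairs from proliferating to day 4, 0 to 2 of 3 from day 4 to quadriceps and 3 to 5 between stem cells and quadriceps. In these fits the cause was not tested, except that fewer samples estimate the spread where a sample or the other groups are left out. Scaling moved the median change of all probes from -0.27 to -0.05 between stem cells and passage 0 (quantile normalization) and from -0.03 to 0.17 from day 4 to quadriceps (scaling on probes detected on all arrays).

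The labels of the groups share replicate numbers, and the titles of the proliferating and myotube cultures share numbers in the same order, but same-numbered samples did not deviate together in every pair of groups (r from -0.293 to 0.747 over 16093 probes; above 0.1 for all numbers in 1 of 6 pairs of groups). With the replicate block the counts were 10 for stem cells against passage 0, 1 for day 1, 5 for day 2, 16 for proliferating to day 4 and 6 for quadriceps against day 4. With the title number as a block in a fit of the muscle cultures alone, added after seeing the data, they were 0 for proliferating against passage 0, which share 1 number, 2 for day 1, 0 for day 2, 0 for day 4 against day 2 and 17 for proliferating to day 4; the cause of the lost day 2 calls was not tested.

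Signal over background limits Actg2, the Tpm1 internal exon probe and the upstream Tpm3 probe, and 3 samples per group limit every call.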

Other observations

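The NOD/ShiLtj skeletal muscle sample, which entered no comparison, had Acta1 at 11.16, above the mean of the quadriceps group, and the Tpm1 variant 1 probe at 11.03. Actc1 stood at 6.03, between quadriceps samples 2 and 1, and Acta2 at 3.39. Actb was at 7.98 and the Actg1 probe A_55_P1970597 at 7.49. The Tpm1 variant 2 probe was at 0.24 and the internal exon probe at -0.93. The Tpm2 probes were at 8.32 and 8.86 and Tpm4 at 3.19. The downstream Tpm3 probe was at 3.99 and the upstream one at -1.44, well above background and between quadriceps samples 2 and 3. Among the slow-fibre genes, Myh7 was at -0.40, Tnni1 at -0.03 and Tnnt1 at 3.01, each again between quadriceps samples 2 and 3, whereas Myl2 at 2.73 and Myl3 at 1.21 lay below all 3 quadriceps samples.

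The 2 arrays of the E14tg2 sample give the technical spread of the member probes. On the 18 probes well above background on both, the arrays differed by 0.0241 to 0.443 on the log2 scale.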
